A study of Danio rerio with 6 samples.

Results

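Interstitial collagens are those of connective tissue outside basement membrane and cartilage. The genes described here are mainly the interstitial collagens of zebrafish and the small leucine-rich proteoglycans that bind collagen fibrils. They were chosen by name from a table of gene expression: every collagen except types II, IV, IX, XI, XV and XVIII and except col10a1a, plus 9 named proteoglycans. This gave 44 of the 29126 genes of the table, 36 collagens and 8 proteoglycans. The other named proteoglycan, ogna, was not found under that name. The choice by name also takes in collagens that are not interstitial, such as the epidermal types VII and XVII and the transmembrane type XIII. It also keeps genes known from cartilage, such as those of type XXVII, the second type X gene col10a1b and the proteoglycan gene epyc.

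Collagens are trimers wound from chains that each have a gene of their own, and in zebrafish type I collagen, the main fibre of skin, tendon and bone, draws on col1a1a, col1a1b and col1a2. Types V, XXIV and XXVII are further fibrillar collagens, types XII, XIV, XVI, XIX and XXI sit on or near fibrils, type VI forms beaded filaments around cells, and types VIII and X form sheets. Small leucine-rich proteoglycans, such as decorin, lumican and fibromodulin, bind fibrils and limit their width and spacing.

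RNA sequencing had been run on cells of Tg(fli1:EGFP) zebrafish, a transgenic line whose green fluorescent protein, under regulatory sequence of fli1a, marks blood vessels, some blood cells and pharyngeal arch mesenchyme. The 6 libraries fall into 3 populations with 2 libraries each, Fli1- (no reporter), Low-Fli1+ and High-Fli1+, and all 3 carry the same transgene. The labels give no age or stage, no treatment and no account of how the populations were obtained, and do not say whether replicates came from separate fish, so p-values measure only the spread between these libraries. Values are FPKM (fragments scaled by transcript length and library size), so levels of different genes can be compared per length, while the depth of each library is unknown. Pairs of values are replicates 1 and 2, and 3 pairs in a row are Fli1-, Low-Fli1+ and High-Fli1+ in that order.

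The FPKM of all genes summed to between 430723 and 712585 per library. Of the 29126 genes, 14082 and 12575 were listed at 0 in Low-Fli1+ libraries, against 8451 to 11457 in the other 4. Cartilage markers (6 of 6 found) summed to 118 and 161 FPKM (Fli1-), 1078 and 1085 (Low-Fli1+) and 10780 and 8897 (High-Fli1+). Fibroblast and mesenchyme markers (6 of 6) summed to 16.3 and 30.9, 270.5 and 337, and 635 and 555. Tendon markers (3 of 3) summed to between 5.95 and 65.5 over the 6 libraries, lowest in Fli1- and highest in High-Fli1+. Among them, scxa overlapped between Low-Fli1+ (20.5 and 16.1) and High-Fli1+ libraries (17.7 and 13.8). Endothelial markers (6 of 6) summed to 8.13 and 4.58, 8.34 and 21.0, and 87.9 and 101, with pecam1 at 0 in both Fli1- libraries. Red cell markers (4 of 4) went the other way, from 37940 and 29280 FPKM (Fli1-) to 2969 and 4560 (Low-Fli1+) and to 62.1 and 42.2 (High-Fli1+). Neuron markers (5 of 5) summed to 1317 and 1177 (Fli1-), 761.5 and 530 (Low-Fli1+) and 67.8 and 27.7 (High-Fli1+). White blood cell markers (6 of 6) were at 13.8 and 16.4 (Fli1-), 459.8 and 639 (Low-Fli1+) and 109.6 and 140.4 (High-Fli1+). Of these, mpeg1.1 was lower in High-Fli1+ (0.670 and 0.412) than in Fli1- libraries (3.26 and 3.50), and the others were higher. Osteoblast markers (4 of 4) summed to 0 and 1.23, 38.1 and 5.40, and 33.8 and 15.04, with bglap at 0 in every library. Notochord markers (3 of 4) summed to 14.4 and 9.65, 2.38 and 4.23, and 4.695 and 6.30, with noto at 0 in every library. From Fli1- to High-Fli1+, shha fell (13.9 and 9.16 to 0.717 and 0.696) while entpd5a rose (0.447 and 0.491 to 3.98 and 5.61). Muscle markers (5 of 5) summed to between 33.6 and 77.0 over the 6 libraries, with overlap between populations. These are bulk samples, so fewer cells of a type and less RNA per cell cannot be told apart, and the part of cell makeup in any result below was not tested.

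The 44 genes were a minor part of the RNA of Fli1- cells and a larger part of that of both reporter-positive populations. Together they held 405 and 759 FPKM (Fli1-), 3557 and 4593 (Low-Fli1+) and 5152 and 4248 (High-Fli1+), and the populations with and without reporter did not overlap. As a share of the FPKM of all genes this was 0.0735% and 0.125% (Fli1-), 0.826% and 0.848% (Low-Fli1+) and 1.15% and 0.596% (High-Fli1+). Type I collagen made up most of the sum in Fli1- (61.3% and 63.0%) and Low-Fli1+ libraries (61.4% and 70.15%), and a smaller share in High-Fli1+ libraries (40.8% and 39.2%). By mean level, 24 genes were highest in High-Fli1+, 9 in Low-Fli1+ and 10 in Fli1- cells, and COL28A1 (1 of many) was listed at 0 in all 6 libraries. These counts were not set against all genes. Some placings rest on genes near the floor or on near ties, as for col1a2 (means of 458 FPKM in Low-Fli1+ and 456 in High-Fli1+).

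**Figure D1:**
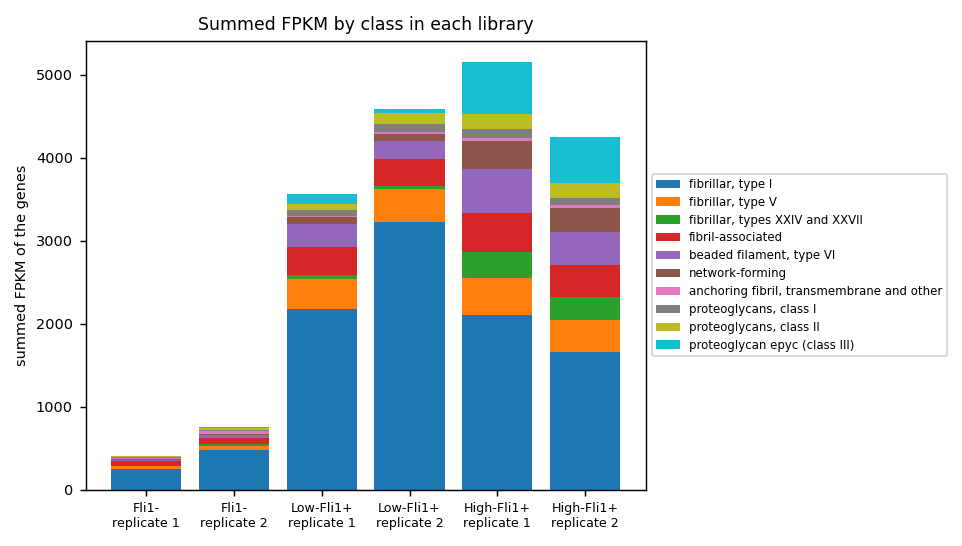
Stacked bars give the summed FPKM of the 44 genes in each of the 6 libraries, from 0, with 1 colour for each class of collagen or proteoglycan. The Fli1- bars end at 405 and 759 and the others between 3557 and 5152, and type I collagen takes 40.8% and 39.2% of the High-Fli1+ bars.

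The 2 libraries of a population were not equally close. Among genes of the group at 1 FPKM or more in both Fli1- libraries, 27 of 32 were higher in replicate 2, with a median ratio of 1.63 to replicate 1, while the median ratio over all 15824 such genes was 0.975. In High-Fli1+ libraries 26 of 33 were higher in replicate 1 (median ratio 0.847, against 0.890 for all genes). In Low-Fli1+ libraries 19 of 27 were higher in replicate 2 (median ratio 1.15, against 0.945).

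**Figure D2:**
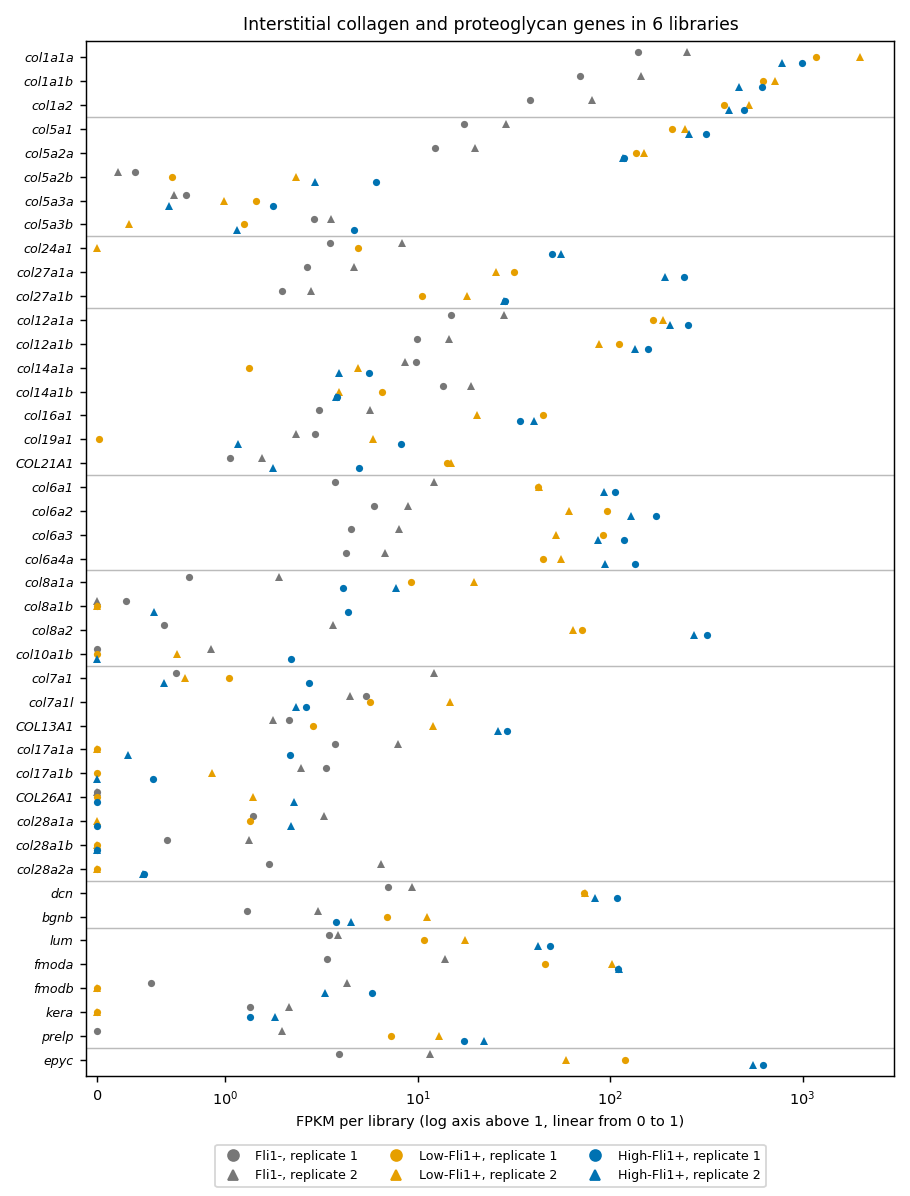
Each row is 1 gene and each symbol its FPKM in 1 library, on an axis that is logarithmic above 1 and linear from 0 to 1, with lines between classes. The highest symbols are those of col1a1a, with epyc next by mean level in High-Fli1+, and col8a2, col27a1a and epyc lie under 12 FPKM in Fli1- and above 190 in High-Fli1+ libraries, and col14a1b and col17a1b are highest in Fli1-; COL28A1 (1 of many), at 0 throughout, is not drawn.

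Of the 44 genes, 42 had a mean of at least 0.5 FPKM over the 6 libraries and were tested within 1 model of all 19237 genes above that level; col28a1b (0.549 and 1.33 FPKM in Fli1- and 0 elsewhere) and COL28A1 (1 of many) were not. A gene was called at an adjusted p under 0.05, and a log2 fold change here is a difference of mean log2(FPKM + 1), which understates the change of low genes. In High-Fli1+ against Fli1- cells, 21 of the 42 were higher and 1 lower, where 5.79% of all genes tested were called higher and 11.5% lower. At an unadjusted p under 0.05, 24 were higher and 4 lower (9.88% and 22.1% of all genes). Both High-Fli1+ libraries lay above both Fli1- libraries for 27 and below for 6 (21.6% and 44.2% of all genes). Their median log2 fold change was 2.31, against -0.35 for all genes tested. Of the 42, 15 were higher in Low-Fli1+ than in Fli1- cells, where 2.14% of all genes were, and 0 were lower by limma, where 1.1% were. At an unadjusted p under 0.05 these counts were 23 and 6 (8.71% and 12% of all genes), and without overlap between the libraries 27 and 9 (18.9% and 30.5%). The median there was 1.92, against -0.21 for all genes. Both comparisons share the Fli1- libraries. High-Fli1+ against Low-Fli1+ gave 3 higher, where 1.22% of all genes were, and 0 lower by limma, where 4.15% were, with 12 and 2 at an unadjusted p under 0.05 (8.15% and 15.8% of all genes). Without overlap between the libraries they were 22 and 8 (18.3% and 28.3%). That median was 0.55, against -0.13 for all genes.

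**Figure D3:**
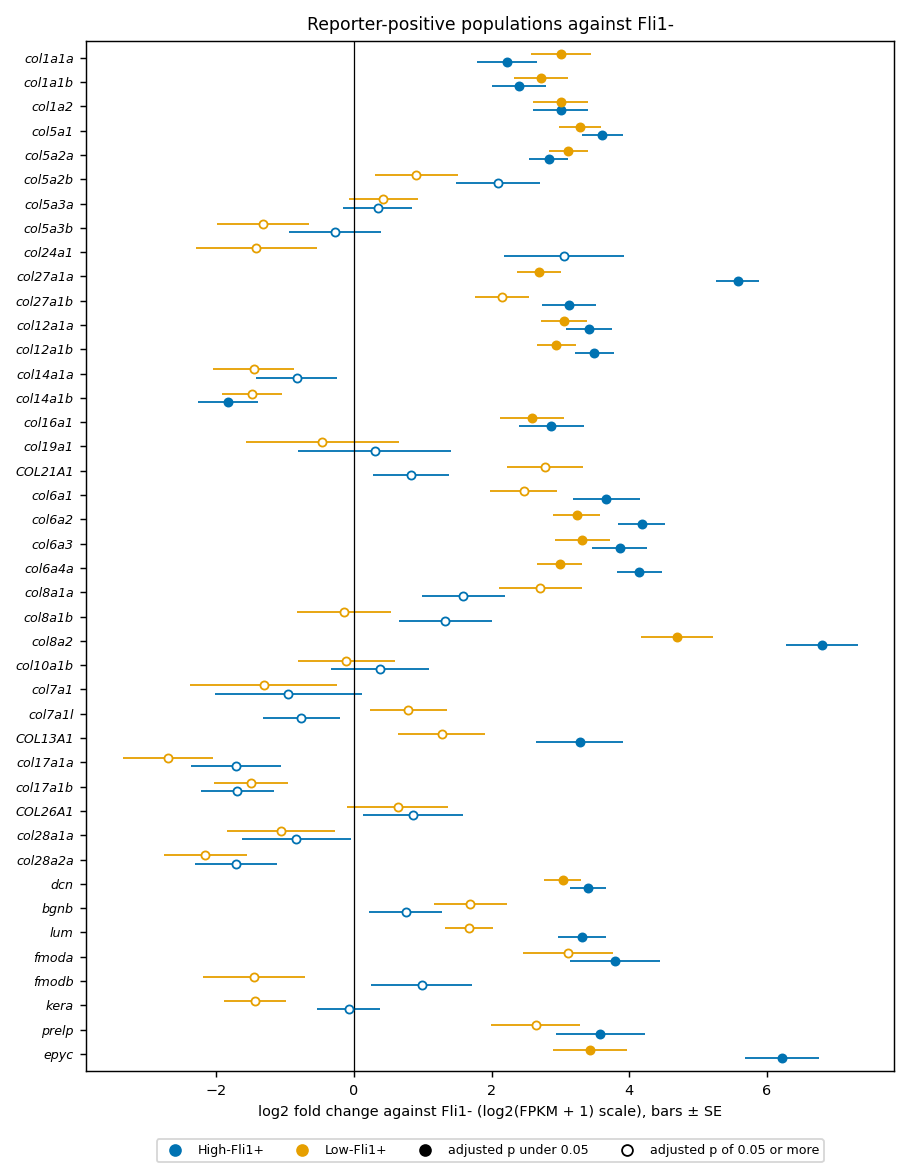
Each row is 1 tested gene, with its log2 fold change of High-Fli1+ (blue) and Low-Fli1+ (orange) against Fli1- cells on the log2(FPKM + 1) scale, bars of 1 SE, and filled symbols for an adjusted p under 0.05. Filled symbols number 22 in blue and 15 in orange, and 1 of them, col14a1b in blue, lies below 0.

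Type I collagen was the most abundant of these collagens in every population and was higher in both reporter-positive populations than in Fli1- cells. The gene col1a1a, which encodes an alpha1(I) chain, stood at 139 and 252 FPKM (Fli1-), 1168 and 1979 (Low-Fli1+) and 989 and 783 (High-Fli1+). Both Low-Fli1+ libraries were above both High-Fli1+ libraries, and those above both Fli1- libraries. It was higher in Low-Fli1+ than in Fli1- cells by a log2 fold change of 3.01 ± 0.44 (SE; adjusted p = 0.0329) and in High-Fli1+ by 2.22 ± 0.44 (adjusted p = 0.0230). Its paralog col1a1b, a second alpha1(I) gene, stood at 70.2 and 145 FPKM (Fli1-), 623 and 718 (Low-Fli1+) and 615 and 467 (High-Fli1+). The alpha2(I) gene col1a2 stood at 38.4 and 80.5, 392 and 525, and 498 and 413 FPKM. Both were called in Low-Fli1+ (log2 fold changes 2.716 and 3.003, adjusted p = 0.0339 and 0.0286) and in High-Fli1+ cells (2.397 and 3.004, adjusted p = 0.0144 and 0.00806).

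No type I gene was called between High-Fli1+ and Low-Fli1+ cells. Their differences were chosen for printing once the values were known, outside the naming rule. The log2 fold change was -0.79 for col1a1a (95% confidence interval -1.86 to 0.28, adjusted p = 0.344), -0.32 for col1a1b (-1.30 to 0.66, adjusted p = 0.666) and 0.00088 for col1a2 (-0.98 to 0.98, adjusted p = 1). The sign for col1a1b became 0.043 under median-ratio scaling and that for col1a2 became -0.42 under quantile normalization. Without Low-Fli1+ replicate 1 col1a2 was at -0.21, without High-Fli1+ replicate 1 at -0.13.

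The ratio of alpha1(I) to alpha2(I) transcripts was lowest in High-Fli1+ libraries. Per length, col1a1a stood at 3.63 and 3.14 times the level of col1a2 (Fli1-), 2.98 and 3.77 times (Low-Fli1+) and 1.99 and 1.90 times (High-Fli1+). For col1a1b the ratio to col1a2 was 1.83 and 1.80, 1.59 and 1.37, and 1.24 and 1.13, with no overlap between any pair of populations. With 2 libraries against 2, an exact two-sided permutation test cannot go below p = 0.333, which is the value it gave for each of these differences except col1a1a to col1a2 in Low-Fli1+ against Fli1- (exact permutation p = 1).

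Type V collagen, which co-assembles with type I and starts its fibrils, showed a main pair of chains that was abundant and further chains near the floor. The alpha1(V) gene col5a1 stood at 17.5 and 28.7 FPKM (Fli1-), 211 and 246 (Low-Fli1+) and 316 and 256 (High-Fli1+), higher than in Fli1- by a log2 fold change of 3.29 in Low-Fli1+ (adjusted p = 0.0197) and 3.61 ± 0.30 (SE; adjusted p = 0.00315) in High-Fli1+ cells. Its partner col5a2a stood at 12.3 and 20.0, 137 and 150.1, and 118 and 117 FPKM, with log2 fold changes of 3.11 (adjusted p = 0.0197) and 2.83 (adjusted p = 0.00414). Fli1- libraries were below all others for both genes. The ratio of col1a1a to col5a1 was 7.95 and 8.81 (Fli1-), 5.55 and 8.04 (Low-Fli1+) and 3.13 and 3.06 (High-Fli1+). The paralog col5a2b reached 6.05 and 2.92 FPKM in High-Fli1+ against 0.301 and 0.165 in Fli1- libraries, without overlap and not called (log2 fold change 2.09, adjusted p = 0.0682), although it passed with quantile normalization; against Low-Fli1+ it was 1.19 (adjusted p = 0.306). The alpha3(V) genes col5a3a and col5a3b lay between 0.254 and 4.66 FPKM in all 6 libraries, with no overlap for col5a3b in Low-Fli1+ against Fli1- (log2 fold change -1.33, adjusted p = 0.338).

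The fibrillar types XXIV and XXVII held the 2 collagens called between the reporter-positive populations. Type XXVII is known from developing cartilage, and in zebrafish from the notochord sheath. Its gene col27a1a stood at 2.67 and 4.70 FPKM (Fli1-), 31.7 and 25.6 (Low-Fli1+) and 242 and 194 (High-Fli1+). The 3 populations formed steps with no overlap. Against Fli1- cells, col27a1a was 47.6-fold higher in High-Fli1+ cells by FPKM + 1, a log2 fold change of 5.57 ± 0.32 (SE; adjusted p = 0.00235). On the same scale it was 6.45-fold higher in Low-Fli1+ than in Fli1- cells (adjusted p = 0.0248). The step from Low-Fli1+ to High-Fli1+ was 7.37-fold, a log2 fold change of 2.88 ± 0.32 (SE; adjusted p = 0.0167). Its paralog col27a1b stood at 1.97 and 2.78, 10.6 and 18.02, and 28.5 and 28.0 FPKM, and was called in High-Fli1+ against Fli1- cells (log2 fold change 3.12, adjusted p = 0.00701) but not in Low-Fli1+ against Fli1- cells (2.15, adjusted p = 0.0503), where it passed with a pseudocount of 0.1 and with quantile normalization. Per length, col27a1a exceeded col27a1b by 1.35 and 1.69 times in Fli1-, 2.996 and 1.42 times in Low-Fli1+ and 8.50 and 6.92 times in High-Fli1+ libraries. The type XXIV gene col24a1 stood at 3.52 and 8.30 FPKM (Fli1-), 4.88 and 0 (Low-Fli1+) and 49.9 and 55.5 (High-Fli1+). The difference between High-Fli1+ and Low-Fli1+ cells was called (4.47 ± 0.88 on the log2 scale (SE), adjusted p = 0.0479). That of 3.05 against Fli1- cells was not (adjusted p = 0.0661), although it passed with a pseudocount of 5, quantile normalization and median-ratio scaling. It also passed without either Low-Fli1+ library, in fits with more calls over all genes. Without Low-Fli1+ replicate 2, the library at 0, the log2 fold change over Low-Fli1+ was 3.19. The call was kept there, in a fit with more calls over all genes, and lost without any 1 of the other 5 libraries.

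Fibril-associated collagens went separate ways. Type XII, which coats type I fibrils in tendon, ligament and fascia, has 2 genes, both higher in both reporter-positive populations. Its gene col12a1a stood at 14.99 and 27.98 FPKM (Fli1-), 167 and 188 (Low-Fli1+) and 253 and 204 (High-Fli1+), and col12a1b at 9.88 and 14.6, 112 and 87.3, and 158 and 134. Against Fli1- cells the log2 fold changes were 3.05 and 2.94 in Low-Fli1+ (adjusted p = 0.0227 and 0.0208) and 3.41 and 3.49 in High-Fli1+ cells (adjusted p = 0.00405 and 0.00303). The ratio of col12a1a to col12a1b lay between 1.49 and 2.15 in the 6 libraries, with overlap between all 3 populations. Type XVI, of skin and cartilage matrix, was also higher: col16a1 stood at 3.07 and 5.68, 44.9 and 20.4, and 34.1 and 40.2 FPKM, with log2 fold changes of 2.59 in Low-Fli1+ (adjusted p = 0.0490) and 2.87 in High-Fli1+ cells (adjusted p = 0.0138).

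Type XIV, a fibril-associated collagen of dense connective tissue that in zebrafish is also made by embryonic epidermis, ran the other way. Its gene col14a1b stood at 13.5 and 19.1 FPKM (Fli1-), 6.54 and 3.93 (Low-Fli1+) and 3.84 and 3.76 (High-Fli1+). It was the 1 gene of the group called lower in High-Fli1+ against Fli1-, with a log2 fold change of -1.83 ± 0.43 (SE; adjusted p = 0.0393), a call lost under quantile normalization, median-ratio scaling, the replicate block and no filter. The log2 fold change of -1.48 in Low-Fli1+ cells did not pass (adjusted p = 0.128). Its paralog col14a1a stood at 9.82 and 8.56 FPKM (Fli1-), 1.33 and 4.88 (Low-Fli1+) and 5.58 and 3.93 (High-Fli1+), and was not called (-1.46 in Low-Fli1+, adjusted p = 0.237). Type XXI was highest in Low-Fli1+: COL21A1 stood at 1.06 and 1.56, 14.3 and 14.96, and 4.97 and 1.76 FPKM. Its populations did not overlap, and neither the log2 fold change of 2.77 against Fli1- cells (adjusted p = 0.0597) nor that of -1.94 in High-Fli1+ against Low-Fli1+ (adjusted p = 0.102) passed; the former passed with a pseudocount of 5 and with quantile normalization. The type XIX gene col19a1 ranged from 0.0165 to 5.85 FPKM within Low-Fli1+ and from 1.17 to 8.17 within High-Fli1+, so no order could be read.

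Type VI collagen, the beaded filament that surrounds connective tissue cells, was higher in both reporter-positive populations. All 4 of its genes were called in High-Fli1+ and 3 in Low-Fli1+ against Fli1- cells, where 5.79% and 2.14% of all genes tested were called higher. The gene col6a2 stood at 5.92 and 8.94 FPKM (Fli1-), 96.3 and 61.5 (Low-Fli1+) and 173 and 129 (High-Fli1+), with log2 fold changes of 4.18 ± 0.34 (SE; adjusted p = 0.00310) in High-Fli1+ and 3.23 (adjusted p = 0.0215) in Low-Fli1+ cells. For col6a3 the values were 4.496 and 8.02, 91.4 and 52.1, and 118 and 86.4 FPKM, and the log2 fold changes 3.86 (adjusted p = 0.00464) and 3.32 (adjusted p = 0.0252). The fourth chain gene, col6a4a, stood at 4.26 and 6.79, 44.9 and 55.4, and 135 and 93.6 FPKM, with log2 fold changes of 4.15 (adjusted p = 0.00299) and 2.99 (adjusted p = 0.0224). For each of these genes both Fli1- libraries lay below all others. The alpha1(VI) gene col6a1 stood at 3.73 and 12.1, 42.5 and 42.6, and 106 and 92.7 FPKM, called in High-Fli1+ (3.67, adjusted p = 0.00806) and not in Low-Fli1+ cells (2.47, adjusted p = 0.0584), where it passed with a pseudocount of 5 and without Fli1- replicate 2. Between High-Fli1+ and Low-Fli1+ cells none of the 4 was called, the log2 fold changes of col6a1 and col6a4a being 1.200 (adjusted p = 0.208) and 1.16 (adjusted p = 0.101). In all 6 libraries the levels of col6a1, col6a2 and col6a4a were between 0.464 and 1.51 times that of col6a3.

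Among network-forming collagens, col8a2 held the largest difference of the 42 genes tested. Type VIII collagen forms the sheets of Descemet's membrane in the cornea and occurs in vessel walls, from alpha1 and alpha2 chains. The alpha2(VIII) gene col8a2 stood at 0.521 and 3.65 FPKM (Fli1-), 71.2 and 64.1 (Low-Fli1+) and 318 and 273 (High-Fli1+). The populations did not overlap, with a log2 fold change of 6.80 ± 0.52 (SE; adjusted p = 0.00283) in High-Fli1+ and 4.69 ± 0.52 (adjusted p = 0.0228) in Low-Fli1+ against Fli1- cells. The step of 2.11 from Low-Fli1+ to High-Fli1+ did not pass (adjusted p = 0.0780), and passed with a pseudocount of 5. Its partner gene col8a1a was instead highest in Low-Fli1+, at 0.717 and 1.90, 9.21 and 19.8, and 4.11 and 7.74 FPKM, not called in Low-Fli1+ (2.71, adjusted p = 0.0739) or High-Fli1+ cells (1.58, adjusted p = 0.135; it passed with quantile normalization). From Low-Fli1+ to High-Fli1+ it was -1.12 (adjusted p = 0.331). The ratio of col8a2 to col8a1a was 0.726 and 1.92 (Fli1-), 7.73 and 3.24 (Low-Fli1+) and 77.3 and 35.2 (High-Fli1+). The genes col8a1b and col10a1b stayed under 4.35 FPKM in every library, with col8a1b at 0.227 and 0 (Fli1-), 0 and 0 (Low-Fli1+) and 4.34 and 0.448 (High-Fli1+; log2 fold change 1.33 over Fli1-, adjusted p = 0.246, and adjusted p = 0.2585 against Low-Fli1+).

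The remaining collagens are those of epidermal attachment and of cell surfaces, with types XXVI and XXVIII grouped beside them. Of 8 tested, 1 was called higher and 0 lower by limma in High-Fli1+ against Fli1- cells (1 and 3 at an unadjusted p under 0.05). Of all genes, 5.79% and 11.5% were called there (9.88% and 22.1% unadjusted). In Low-Fli1+ against Fli1- cells 0 of these 8 were called by limma (0 higher and 3 lower at an unadjusted p under 0.05). Of all genes, 2.14% were higher and 1.1% lower there (8.71% and 12% unadjusted). Type XIII, a transmembrane collagen of adhesion sites and neuromuscular junctions, was called. Its gene COL13A1 stood at 2.14 and 1.77 FPKM (Fli1-), 2.87 and 12.1 (Low-Fli1+) and 29.0 and 26.3 (High-Fli1+) (a log2 fold change of 3.28 ± 0.63 (SE) over Fli1-, adjusted p = 0.0220). It was not called in Low-Fli1+ over Fli1- (1.27, adjusted p = 0.329) or from Low-Fli1+ to High-Fli1+ (2.01, adjusted p = 0.124). The latter passed without Low-Fli1+ replicate 2, in a fit with more calls over all genes. Type XVII, the hemidesmosome collagen of basal epidermis, had its highest values in Fli1-. Its gene col17a1a stood at 3.74 and 7.92, 0 and 0, and 2.17 and 0.247 FPKM, and col17a1b at 3.35 and 2.47, 0 and 0.896, and 0.436 and 0. Neither was called (log2 fold changes in High-Fli1+ against Fli1- -1.71 and -1.70, adjusted p = 0.136 and 0.0836). Without either Low-Fli1+ library col17a1b passed, in fits with more calls over all genes. The adjusted p in Low-Fli1+ against Fli1- was 0.0880 for col17a1a, listed at 0 in both Low-Fli1+ libraries, and 0.186 for col17a1b (log2 fold change -1.50). Type VII forms the anchoring fibrils under the epidermis, and col7a1 stood at 0.617 and 12.2 FPKM in Fli1- and between 0.523 and 2.74 elsewhere. The related gene col7a1l was highest in Low-Fli1+ replicate 2 (14.7 FPKM) and between 2.33 and 5.64 in the other 5 libraries, without a call from Low-Fli1+ to High-Fli1+ (log2 fold change -1.55, adjusted p = 0.164). The type XXVIII gene col28a2a stood at 1.69 and 6.46 FPKM (Fli1-), 0 and 0 (Low-Fli1+) and 0.368 and 0.360 (High-Fli1+), not called in High-Fli1+ (log2 fold change -1.72, adjusted p = 0.111) or in Low-Fli1+ (adjusted p = 0.116) against Fli1-. It passed without Fli1- replicate 1 in both comparisons, where lower calls over all genes fell in the first and rose in the second. In the second, col28a2a also passed without Fli1- replicate 2, where such calls rose too. Its relative col28a1a ranged from 0 to 3.28 FPKM (log2 fold change -1.06 in Low-Fli1+ against Fli1-, adjusted p = 0.503) and COL26A1 from 0 to 2.29 FPKM. Epidermis markers (7 of 7 found) summed to 561 and 945.5 FPKM (Fli1-), 166 and 46.5 (Low-Fli1+) and 278 and 95.1 (High-Fli1+), with tp63 at 0 in Low-Fli1+ replicate 2 and cldni at 0 in High-Fli1+ replicate 1, and their part in these values was not tested.

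The proteoglycan with the largest difference was epyc. It encodes epiphycan, a class III small leucine-rich proteoglycan known from growing cartilage. It stood at 3.92 and 11.6 FPKM (Fli1-), 119 and 58.8 (Low-Fli1+) and 620.1 and 555 (High-Fli1+). The populations formed 3 steps without overlap. Against Fli1- cells, epyc was 74.5-fold higher in High-Fli1+ cells by FPKM + 1, a log2 fold change of 6.22 ± 0.53 (SE; adjusted p = 0.00323). In Low-Fli1+ cells it was 10.7-fold higher (adjusted p = 0.0364). From Low-Fli1+ to High-Fli1+ it stepped up 6.93-fold, a log2 fold change of 2.79 ± 0.53 (SE; adjusted p = 0.0452). That call was lost whichever library was left out, with log2 fold changes from 2.29 to 3.30. By mean level epyc ranked 13 of the 44 genes in Fli1- cells and 2 in High-Fli1+ cells.

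Decorin, the class I proteoglycan that binds type I fibrils, was higher in both reporter-positive populations. Its gene dcn stood at 7.05 and 9.37 FPKM (Fli1-), 73.4 and 73.9 (Low-Fli1+) and 109 and 83.4 (High-Fli1+), with log2 fold changes of 3.03 (adjusted p = 0.0197) in Low-Fli1+ and 3.40 ± 0.26 (SE; adjusted p = 0.00291) in High-Fli1+ against Fli1- cells. The ratio of epyc to dcn was 0.557 and 1.24 (Fli1-), 1.62 and 0.796 (Low-Fli1+) and 5.68 and 6.65 (High-Fli1+). Biglycan, the other class I member, was low. Its gene bgnb stood at 1.30 and 3.05, 6.91 and 11.2, and 3.78 and 4.503 FPKM, highest in Low-Fli1+ without a call (log2 fold change 1.69 against Fli1-, adjusted p = 0.148).

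Class II proteoglycans, which bear keratan sulfate or bind fibrils through the same surface, had 3 of 5 genes called in High-Fli1+ and 0 in Low-Fli1+ against Fli1- cells by limma. In the latter comparison 3 were higher and 1 lower at an unadjusted p under 0.05. Of all genes tested, 5.79% were called higher in the former comparison. In the latter 2.14% were called higher and 1.1% lower (8.71% and 12% unadjusted). Lumican, which spaces the fibrils of cornea and skin, is encoded by lum, at 3.46 and 3.84 FPKM (Fli1-), 10.7 and 17.6 (Low-Fli1+) and 48.5 and 42.2 (High-Fli1+) (log2 fold change 3.31 ± 0.35 (SE) in High-Fli1+, adjusted p = 0.00477; 1.67 in Low-Fli1+, adjusted p = 0.0663). Its step from Low-Fli1+ to High-Fli1+ was 1.65 (adjusted p = 0.0556), and it passed with a pseudocount of 5, with median-ratio scaling and with quantile normalization. Fibromodulin, a tendon and cartilage proteoglycan that competes with lumican for fibrils, is encoded by fmoda, at 3.38 and 13.8, 45.7 and 102, and 110.1 and 111 FPKM (log2 fold change 3.79 in High-Fli1+, adjusted p = 0.0157; 3.11 in Low-Fli1+, adjusted p = 0.0660). The Low-Fli1+ difference of fmoda passed with the replicate block. The gene prelp, whose product links basement membrane to connective tissue, stood at 0 and 1.97, 7.30 and 12.9, and 17.4 and 22.05 FPKM (3.58 in High-Fli1+, adjusted p = 0.0184; 2.64 in Low-Fli1+, adjusted p = 0.0897). The remaining class II genes were listed at 0 in both Low-Fli1+ libraries: fmodb at 0.426 and 4.29 FPKM (Fli1-) and 5.81 and 3.31 (High-Fli1+), and kera, which encodes the corneal keratocan, at 1.35 and 2.15 (Fli1-) and 1.36 and 1.81 (High-Fli1+). Neither was called in any comparison, with adjusted p of 0.339 for fmodb and 0.145 for kera in Low-Fli1+ against Fli1-, and of 0.117 and 0.1395 in High-Fli1+ against Low-Fli1+.

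Of the proteoglycan genes, 4 are neighbours in the zebrafish reference. In the RefSeq annotation of GRCz12tu, with only protein-coding genes counted, epyc, kera, lum and dcn follow each other without another gene between them. Their levels were unlike within this run, with means of 587, 1.59, 45.4 and 96.3 FPKM in High-Fli1+ cells in that order, so the lowest gene of the run lies beside the highest.

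Many of these calls were lost in fits with 1 library left out. Calls over all genes tested also changed in those fits, and the cause of each loss was not tested. In High-Fli1+ against Fli1- cells, 3 of the 22 called genes, col27a1a, col6a4a and dcn, were called whichever library was left out (highest adjusted p 0.0495 for each). Without High-Fli1+ replicate 2, and with no other library, col5a1, col12a1b and col6a2 (adjusted p = 0.0507 each) and col8a2 (0.0526) lost the call. Without either High-Fli1+ library, col5a2a, col12a1a, col6a1 and epyc did, with highest values of 0.0579, 0.0573, 0.0823 and 0.0576. Without Fli1- replicate 1 or either High-Fli1+ library, col1a1b, col1a2 and col6a3 lost the call. The other 8 lost the call without each of the 4 libraries compared: col1a1a (up to 0.223), col27a1b (0.0773), col14a1b (0.233), col16a1 (0.148), COL13A1 (0.180), lum (0.0599), fmoda (0.128) and prelp (0.139). The count of 21 higher genes fell without any 1 of the 4 Fli1- and High-Fli1+ libraries. Higher calls over all genes tested fell in the same 4 fits. In Low-Fli1+ against Fli1- cells fewer than 15 were higher without Fli1- replicate 1, Fli1- replicate 2 or Low-Fli1+ replicate 2. Higher calls over all genes tested also fell in each of these fits. Without Low-Fli1+ replicate 1 or either High-Fli1+ library, 0 of the 19237 genes were called by limma in that comparison, so that all 15 calls were lost. In High-Fli1+ against Low-Fli1+ cells the call of epyc was lost whichever library was left out. Those of col27a1a and col24a1 were kept without Low-Fli1+ replicate 2, in a fit with more calls over all genes. Without any 1 of the other 5 libraries all calls in that comparison were lost, over all genes tested. With no filter on low values, col1a1a, col1a1b, col16a1, COL13A1, fmoda and prelp also lost the call in High-Fli1+ against Fli1-, and prelp lost it with a pseudocount of 0.1. In Low-Fli1+ against Fli1- the call of col16a1 was lost with both other pseudocounts, no filter, median-ratio scaling and the replicate block, and that of epyc with no filter and the replicate block. With no filter the Low-Fli1+ calls of all 3 type I genes, col6a3 and col8a2 were lost too. In High-Fli1+ against Low-Fli1+ the call of epyc was lost with a pseudocount of 0.1, no filter, quantile normalization and the replicate block, that of col24a1 with the same settings except quantile normalization, and that of col27a1a with no filter. Log2 fold changes also moved with 1 library left out. In High-Fli1+ against Fli1- they ran from 5.25 to 5.89 for col27a1a, 5.54 to 6.90 for epyc and 1.80 to 2.65 for col1a1a. Some ranges were wider, such as 2.91 to 4.67 for fmoda there and 3.19 to 5.75 for col24a1 in High-Fli1+ against Low-Fli1+. Leaving out a Low-Fli1+ library cannot move a fold change of High-Fli1+ against Fli1-.

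The machinery that folds, secretes and trims procollagen was higher in High-Fli1+ cells together with these collagens. Its genes were listed with earlier results of these data known. Of 24 such genes tested, 20 were higher and 0 lower by limma in High-Fli1+ against Fli1- cells (21 and 0 at an unadjusted p under 0.05), with a median log2 fold change of 2.95. Of all genes tested, 5.79% and 11.5% were called there (9.88% and 22.1% unadjusted), with a median of -0.35. In Low-Fli1+ against Fli1- cells 4 were higher and 0 lower by limma (13 and 1 at an unadjusted p under 0.05), and in High-Fli1+ against Low-Fli1+ cells 5 and 0 (16 and 0). Of all genes, 2.14% and 1.1% were called in the former comparison (8.71% and 12% unadjusted). In the latter the shares were 1.22% and 4.15% (8.15% and 15.8% unadjusted). In this list, High-Fli1+ and Fli1- cells differed most in pcolceb and pcolcea, enhancers of procollagen C-propeptide removal, and p3h1, a prolyl 3-hydroxylase. The gene pcolceb was listed at 0.396 and 0 FPKM (Fli1-), 0 and 0 (Low-Fli1+) and 59.0 and 46.7 (High-Fli1+) (log2 fold change 5.50, adjusted p = 0.00350 against Fli1-). For pcolcea the values were 1.27 and 0.193, 27.2 and 16.9, and 49.6 and 40.1 FPKM (log2 fold change 4.79, adjusted p = 0.00394), and for p3h1 1.79 and 6.47, 12.8 and 34.2, and 89.0 and 80.7 FPKM (4.23, adjusted p = 0.0105). The call of p3h1 was lost with no filter and without any 1 of the 4 Fli1- and High-Fli1+ libraries (up to 0.117) and that of pcolcea without either High-Fli1+ library (up to 0.0589).

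Collagen receptors and tendon and bone regulators were also higher in part, in lists chosen with earlier results of these data known. In High-Fli1+ against Fli1- cells, 5.79% of all genes tested were higher and 11.5% lower by limma. At an unadjusted p under 0.05 these shares were 9.88% and 22.1%, and the median log2 fold change was -0.35. In Low-Fli1+ against Fli1- cells the shares were 2.14% and 1.1% (8.71% and 12% unadjusted). Of 13 collagen receptors tested, 7 were higher and 0 lower by limma in High-Fli1+ against Fli1- cells (7 and 0 at an unadjusted p under 0.05; median 2.65). In Low-Fli1+ against Fli1- cells these counts were 5 and 0 (8 and 2 unadjusted). The largest were the collagen-binding receptor kinases ddr2b, at 0.354 and 0.784, 2.26 and 3.10, and 47.2 and 46.7 FPKM (log2 fold change 4.95, adjusted p = 0.00331), and ddr2a (3.40, adjusted p = 0.00649), with the collagen uptake receptor MRC2 (3.79, adjusted p = 0.00394). Of 11 tendon and bone genes tested, 6 were higher and 0 lower by limma in High-Fli1+ against Fli1- cells (9 and 0 unadjusted; median 3.05), led by the bone and cartilage factors runx2b (3.44, adjusted p = 0.0110) and runx2a (3.32, adjusted p = 0.0209) and the tendon factor mkxa (3.35, adjusted p = 0.00627). None of the 3 osteoblast markers tested was called in that comparison (1 higher and 0 lower unadjusted). In Low-Fli1+ against Fli1- cells the counts of tendon and bone genes were 1 and 0 (5 and 0 unadjusted). Among 7 tested proteoglycans and relatives outside the group, 2 were higher and 0 lower by limma in High-Fli1+ (5 and 0 unadjusted), aspn (asporin), listed at 0 in both Fli1- libraries and at 46.8 and 24.2 FPKM in High-Fli1+ (adjusted p = 0.00377), and chadlb, a chondroadherin-like gene (log2 fold change 5.43, adjusted p = 0.00298). Each of these named genes lost its call without High-Fli1+ replicate 2, the highest adjusted p over the libraries left out being between 0.0507 for aspn and 0.172 for runx2a. The losses of aspn and chadlb came with that library alone. The calls of ddr2b and MRC2 also went without High-Fli1+ replicate 1, that of ddr2a also without High-Fli1+ replicate 1 or Fli1- replicate 1, and those of runx2b, runx2a and mkxa also without High-Fli1+ replicate 1 or either Fli1- library. With no filter runx2a lost its call too.

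The cartilage collagens, types II, IX, X (col10a1a) and XI, make the fibrils and sheets of cartilage and were left out of the group by name. Of 10 such genes, 7 were called higher in High-Fli1+ than in Low-Fli1+ cells with a median log2 fold change of 2.80. The group described here had 3 of 42 and a median of 0.55 in that comparison. Its 3 called genes include col27a1a and epyc, both known from cartilage. Of all genes tested, 1.22% were called higher and 4.15% lower there, with a median of -0.13. The difference between the groups of genes was not tested. Within a library, the ratio of col1a1a to the cartilage collagen gene col2a1a was 2.52 and 3.43 (Fli1-), 1.73 and 3.30 (Low-Fli1+) and 0.182 and 0.168 (High-Fli1+). The High-Fli1+ ratios lay below the other 4, and the exact two-sided permutation test of High-Fli1+ against Low-Fli1+ gave p = 0.333, the smallest that 2 against 2 libraries allow. By the same measure col27a1a, at 0.0191 and 0.0186, 0.0271 and 0.0130, and 0.245 and 0.247 times col1a1a, stood higher in both High-Fli1+ libraries than in the other 4 (exact permutation p = 0.333 against either population).

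**Figure D4:**
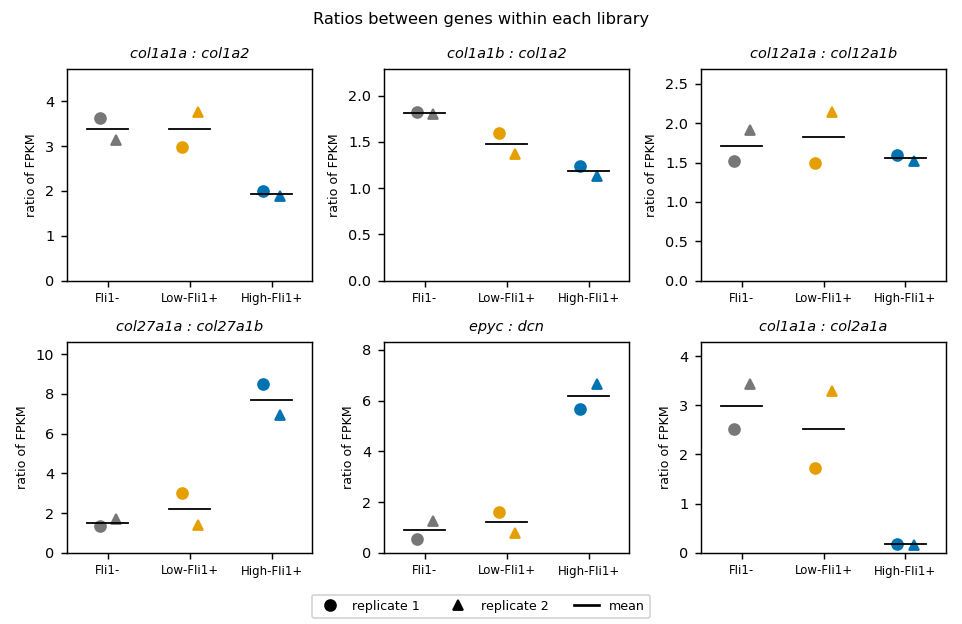
Each panel gives, from 0, the ratio of the FPKM of 2 genes in each of the 6 libraries (circles replicate 1, triangles replicate 2, lines the mean of 2). The ratio of col27a1a to col27a1b reached 8.50 and 6.92 and that of epyc to dcn 5.68 and 6.65 in High-Fli1+ libraries, that of col1a1a to col2a1a was lowest there, and that of col12a1a to col12a1b overlapped between populations.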

How the data were processed

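RNA-seq had been run on 6 libraries. Per the file headers, the authors deposited 1 FPKM value for each gene in each library; the aligner, build and annotation are not given in the sources used here, and libraries started from poly-A RNA, per the labels' protocols. Of 29144 entries, 18 named by a calendar date were left out (0.0655% to 0.149% of a library's sum). Genes with a mean of at least 0.5 FPKM were tested on log2(FPKM + 1), without further scaling, in 1 linear model of the 3 populations in limma 3.58.1 under R 4.3.3, with variances that follow a trend (3 residual and 2.89 prior degrees of freedom) and Benjamini-Hochberg adjustment over 19237 genes. Depth is unknown, so no counting error can be given. Members and gene lists were chosen with earlier results of these data known. All 44 genes are given by level; a fold change is printed where a gene was called, or where it was at least 1 (log2) with no overlap (adjusted p alone against a population at 0 in both libraries), and for the 3 largest called genes of each other list (aspn, at 0 in Fli1-, by level and adjusted p). Alternatives were pseudocounts of 0.1 and 5, no filter, quantile normalization, median-ratio scaling, the replicate number as a block, and leaving out each library. Names were matched to RefSeq symbols for 43 of the 44 genes.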

Additional observations from a re-analysis of the deposited data

How the results depend on the processing

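Counts of called genes of the group changed with the settings. Directions were followed mainly for genes that the naming rule picked by call or by size. They therefore cannot show how stable the directions of the other genes are. The 3 genes higher in High-Fli1+ against Low-Fli1+ became 1 with a pseudocount of 0.1, 5 with a pseudocount of 5, 0 with no filter and 1 with the replicate block. The 1 gene lower in High-Fli1+ against Fli1- became 0 with no filter, quantile normalization, median-ratio scaling or the replicate block, and the 15 higher in Low-Fli1+ against Fli1- became 8 with no filter. With 1 library left out, higher calls ran from 3 to 23 in High-Fli1+ against Fli1-, 0 to 10 in Low-Fli1+ against Fli1- and 0 to 4 in High-Fli1+ against Low-Fli1+. Lower calls ran from 0 to 2, 0 to 1 and 0 to 0. An arm left with 1 library is assumed to vary like the others, and the fit then rests on 2 residual degrees of freedom. Calls over all genes tested also rose and fell between these fits. The cause of each change was not tested. Among the fold changes recomputed, which are those of the naming rule and the 3 of type I collagen between the reporter-positive populations, values of 2 genes turned their sign, both in High-Fli1+ against Low-Fli1+: col1a1b from -0.32 to 0.043 under median-ratio scaling, and col1a2 from 0.00088 to -0.42 under quantile normalization and from -0.21 to 0.21 over the libraries left out. In High-Fli1+ against Fli1-, the median over all genes tested went from -0.35 (log2) to 0.01 under quantile normalization and to -0.10 under median-ratio scaling; the medians of the group were then 2.49 and 2.63.

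The replicate numbers were not taken as pairs: deviations of replicate 1 from the population mean correlated across genes at 0.0962 between Fli1- and Low-Fli1+, 0.0806 between Fli1- and High-Fli1+ and 0.121 between Low-Fli1+ and High-Fli1+. With the replicate block, 21 and 0 were called in High-Fli1+ against Fli1-, 14 and 0 in Low-Fli1+ against Fli1- and 1 and 0 in High-Fli1+ against Low-Fli1+ (higher and lower). The block added the Low-Fli1+ against Fli1- call of fmoda.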

Other observations

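Type I collagen was set against marker genes within each library. The summed FPKM of col1a1a, col1a1b and col1a2 was 15.3 and 15.5 times that of the 6 fibroblast and mesenchyme markers (Fli1-), 8.07 and 9.56 times (Low-Fli1+) and 3.31 and 3 times (High-Fli1+). The 2 libraries of each population lay close together and the populations did not overlap, so relative to these markers type I collagen was highest in the population with the lowest level. For the 4 type VI genes the same ratio was 1.13 and 1.16, 1.02 and 0.628, and 0.838 and 0.725, and for epyc it was 0.241 and 0.376, 0.440 and 0.175, and 0.977 and 1. Relative to the 6 cartilage markers, epyc lay between 0.0332 and 0.110 in the 6 libraries with overlap between populations, while its level ran from 3.92 to 620.1 FPKM. Per FPKM of serpinh1b, the collagen chaperone gene, type I collagen stood at 4.23 and 6.84 (Fli1-), 4.71 and 5.97 (Low-Fli1+) and 1.35 and 1.98 (High-Fli1+). These ratios were chosen after the values were seen, and none was tested.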
